A study of Mus musculus with 6 samples.

Results

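The genes described here are 8 regulators of proximal tubule identity and metabolism, Hnf4a, Hnf4g, Pax2, Pax8, Esrra, Esrrg, Nr1h4 and Ppargc1a. They were chosen by name, and all 8 were found among the 46095 gene symbols of the count table. All 8 also had enough counts to be tested, among 14611 tested genes. RNA was sequenced from primary renal tubular epithelial cells (PTECs) of 6 mice in a C57 background at 10 weeks of age. In the 3 mice labelled VHL-KO, replicates 1, 2 and 4, both copies of VHL are floxed for deletion by Cre. In the 3 mice labelled VHL-KO;SETD2-KO, replicates 2, 3 and 4, both copies of Setd2 are floxed as well. By their labels all 6 mice share the VHL deletion and the Cre transgene, and no mouse with intact VHL is compared here. Cre is driven by the promoter of Cdh16 (Ksp-cadherin), which is active in renal tubule epithelium. The comparison asks how these regulators differ between the labels, which the study set up to add the loss of Setd2 to that of VHL.

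Proximal tubule cells reabsorb most of the filtered solutes and depend on mitochondrial respiration. HNF4A is a nuclear receptor that proximal tubule precursors need to mature, and HNF4G is its close relative. PAX2 and PAX8 are paired-domain factors that set up the nephric lineage and remain expressed in mature tubules. ESRRA and ESRRG are orphan nuclear receptors that switch on genes of mitochondrial respiration, and PGC-1alpha, the product of Ppargc1a, is their main coactivator. FXR, the product of Nr1h4, is the bile acid receptor and acts with a retinoid X receptor as partner.

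Library totals ranged from 11168552 to 17883466 counts. Levels are given as CPM, counts scaled by the library total after TMM normalization in edgeR. The floor of 3 counts, taken as the smallest detectable signal, was 0.168 to 0.269 CPM by library total and covers counting error only. Fold changes are for the VHL-KO;SETD2-KO label over the VHL-KO label. Values under a label are given in the order of its replicates, 1, 2 and 4 for VHL-KO and 2, 3 and 4 for VHL-KO;SETD2-KO, and SE is the standard error of a log2 fold change. Setd2, the gene targeted for deletion, had 71.3, 73.8 and 12.3 CPM under VHL-KO. It had 79.5, 57.3 and 89.5 CPM under VHL-KO;SETD2-KO. Setd2 was thus not lower under the SETD2-KO label (log2 fold change 0.52, SE 0.64, edgeR adjusted p = 0.787), so VHL-KO and VHL-KO;SETD2-KO name labels throughout. Without VHL-KO replicate 4 the Setd2 value was 0.052 (SE 0.21). The study itself reported less SETD2, and less of its histone mark H3K36me3, in renal tubules of its mice. It used Western blot, tissue staining and quantitative PCR for this. The counts are per gene and cannot separate the floxed exons from the rest. A library of each label stood apart. VHL-KO replicate 4 had Spearman correlations of 0.717 to 0.765 with the others across genes, against 0.937 to 0.986 among the other 5. VHL-KO;SETD2-KO replicate 3 had 11704 counts of Xist, the RNA of the inactive X chromosome, where each other library had at most 4. Cdh16, whose promoter drives Cre, ranged from 331 to 2252 CPM over the 6 libraries.

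The cells carried proximal tubule markers at high level. The 9 fixed markers summed to 15466, 15011 and 23933 CPM under VHL-KO. They summed to 6566, 9116 and 7801 CPM under VHL-KO;SETD2-KO. The VHL-KO;SETD2-KO libraries thus all lay below the VHL-KO libraries on this sum. Of the 9 markers, 7 had a negative and 2 a positive log2 fold change (Slc5a12 0.50 and Gatm 0.38). The labels did not overlap for 4, all lower (Slc34a1, Slc22a6, Slc27a2 and Slc13a3), where 11.0% of all tested genes were lower without overlap. Of the 9, 0 were higher without overlap and 0 were called at an adjusted p. Summed podocyte markers were 4828 and 4289 CPM in VHL-KO;SETD2-KO replicates 2 and 4 and 1435 to 2085 CPM in the other 4 libraries. Summed endothelial markers were 5296 and 4563 CPM in the same pair of libraries and 1471 to 2281 CPM in the others. Collecting duct markers summed to 605 CPM in VHL-KO replicate 4, 388 CPM in VHL-KO;SETD2-KO replicate 3 and 68.6 to 132 CPM in the others. Stromal markers summed to 412 CPM in VHL-KO replicate 4 and to 49.9 to 145 CPM in the others. In bulk RNA, fewer proximal tubule cells and less RNA of a gene per cell cannot be told apart. The part of cell composition in the results on the 8 regulators was not tested.

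**Figure D1:**
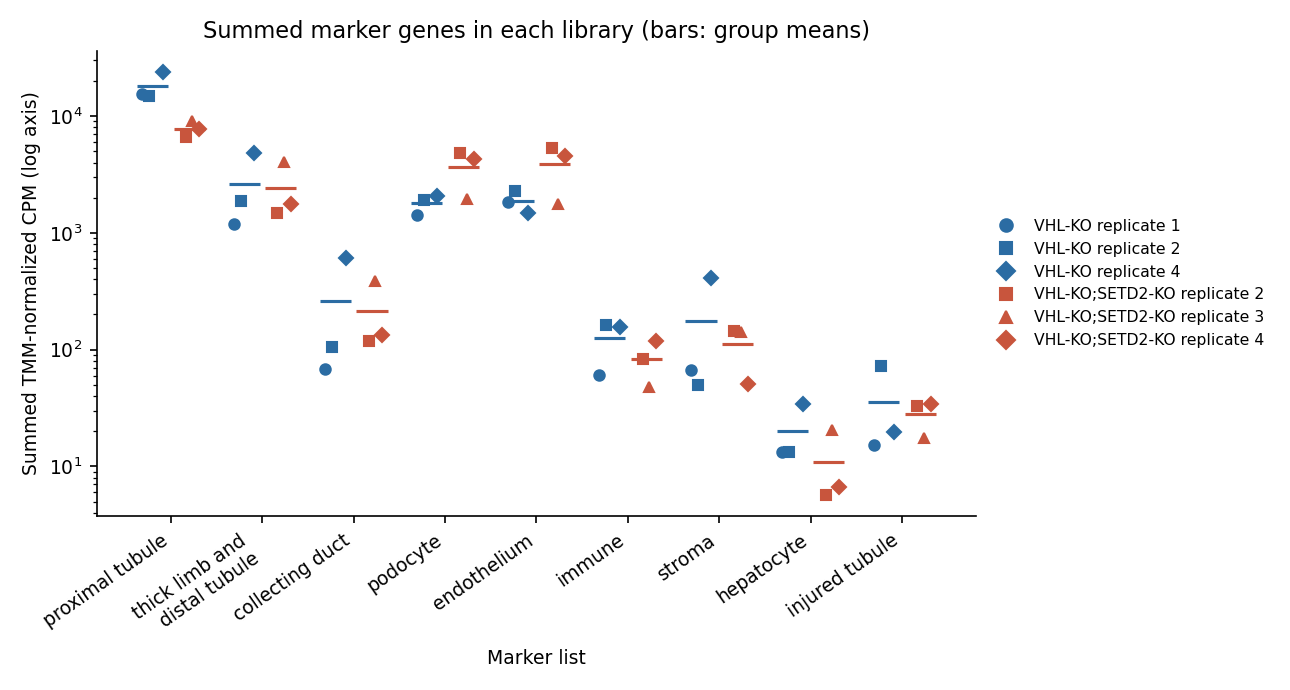
Summed TMM-normalized CPM (log axis) of 9 marker lists in each library, coloured by label, with a bar at each group mean. The proximal tubule sum was lower in each VHL-KO;SETD2-KO library than in any VHL-KO library. Podocyte and endothelial sums were highest in VHL-KO;SETD2-KO replicates 2 and 4.

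Levels of the 8 genes were compared per kilobase of annotated exon, since read counts scale with transcript length. Hnf4a had the highest level in all 6 libraries, from 62.7 to 204 CPM per kb. Nr1h4 was next by mean at 53.2 CPM per kb, with a range of 31.0 to 83.5, and Esrra followed at 24.7 CPM per kb, with a range of 11.8 to 69.9. Nr1h4 and Esrra changed places in VHL-KO replicate 4 alone, where Esrra had 69.9 and Nr1h4 had 31.0 CPM per kb. Pax8, Esrrg and Ppargc1a had means of 8.26, 7.55 and 6.02 CPM per kb with ranges that overlapped, so their order is not set beyond the spread. Hnf4g had a mean of 2.81 and Pax2 a mean of 1.88 CPM per kb, and their ranges overlapped too. Positions below are those of GENCODE M21 on GRCm38. Even the lowest value, 14 counts of Hnf4g in VHL-KO replicate 4, was above the floor of 3 counts.

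**Figure D2:**
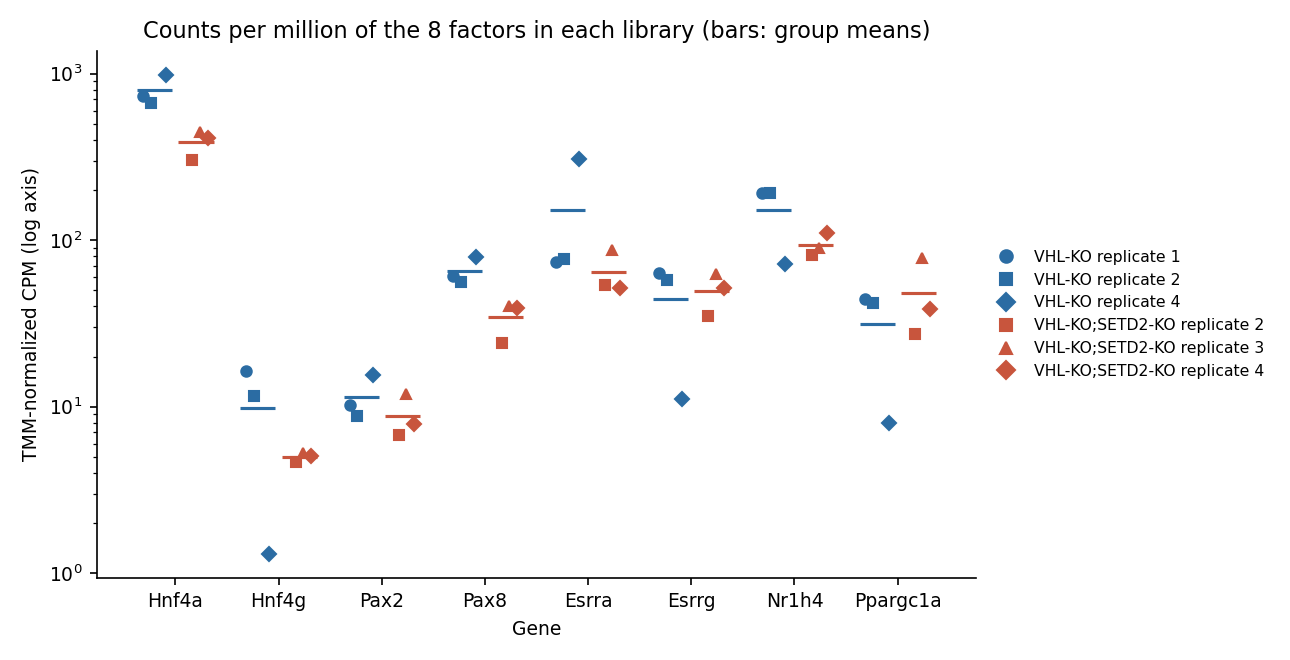
TMM-normalized CPM (log axis, not scaled to length) of the 8 genes in each library, coloured by label, with a bar at each group mean. Hnf4a and Pax8 are the genes whose labels do not overlap, and VHL-KO replicate 4 (blue diamond) lies outside the range of the other 5 libraries for all 8 genes.

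None of the 8 genes differed between labels at an adjusted p under 0.05 in edgeR's quasi-likelihood test, which called 1 of all tested genes (0.00684%). DESeq2 called 0.390% of tested genes at an adjusted p and gave 0.123 for Hnf4a. With p left unadjusted (under 0.05, and 1.5-fold or more), Hnf4a and Pax8 passed, 2 of the 8, both with lower levels under VHL-KO;SETD2-KO. Of all tested genes 7.34% passed so, 4.68% as lower and 2.66% as higher. DESeq2 at the same unadjusted threshold passed 3 of the 8, Esrra beside Hnf4a and Pax8, and 10.6% of all tested genes. Libraries of the labels were fully separate for the same 2 genes, against 20.6% of all genes tested, 11.0% as lower and 9.62% as higher. For separation, 2 of 8 is close to the background share. The median log2 fold change of the 8 genes was -0.82, against 0.0095 for all tested genes. Of the 8, 6 had a negative and 2 a positive log2 fold change. Without VHL-KO replicate 4 the median of the 8 was -0.53, against 0.035 for all genes tested then. In that fit 7 of the 8 were negative and 1 was positive.

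Hnf4a, the nuclear receptor at the centre of this network, had 736, 662 and 985 CPM under VHL-KO. It had 303, 447 and 412 CPM under VHL-KO;SETD2-KO. The lowest VHL-KO library was above the highest VHL-KO;SETD2-KO library. Means were 794 ± 169 CPM (SD, n = 3) and 387 ± 75.2 CPM (SD, n = 3), a 2.05-fold lower level (log2 fold change -1.04, SE 0.43, edgeR adjusted p = 0.625). The 95% interval of the log2 fold change ran from -2.02 to -0.059. Leaving out VHL-KO replicate 4, the highest library for this gene, the log2 fold change was -0.86 (SE 0.22, edgeR adjusted p = 0.136). The gene lies at chr2:163506808-163572910 on the plus strand. The 5′ part of the gene overlaps Hnf4aos, an antisense transcript at chr2:163493807-163541720. Hnf4aos had 8.35, 8.86 and 22.0 CPM under VHL-KO and 3.18, 5.90 and 4.45 CPM under VHL-KO;SETD2-KO. Its labels did not overlap either (log2 fold change -1.54, SE 0.53, edgeR adjusted p = 0.625). The sources used here do not state whether strand was used in counting, so reads of this pair cannot be told apart where they overlap. Hnf4aos was added after its values were seen.

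Hnf4a is transcribed from an upstream and a downstream start, and the downstream one is the start known to serve the adult kidney. The table counts reads per gene and pools both. The bases just before each start are shown because Hnf4a is the gene of the 8 with the highest level in every library. Those before a start inside the annotated Nr1h4 gene are shown because they alone among the windows of the 8 genes hold AGGTCA, the core motif of many nuclear receptors. Sequences are from RefSeq (GRCm38.p6), 5′ to 3′ on the gene's strand, with AGGTCA, read here from the opposite strand as TGACCT, in capitals. The upstream Hnf4a window, which stops where the annotated gene begins, is chr2:163506607-163506807, the downstream one is chr2:163546905-163547154, and the Nr1h4 window is chr10:89506659-89506908 on the minus strand. The Nr1h4 window lies within the annotated gene, whose 5′ end is at chr10:89533585. The bases before that 5′ end were not among the windows searched.
Hnf4a upstream: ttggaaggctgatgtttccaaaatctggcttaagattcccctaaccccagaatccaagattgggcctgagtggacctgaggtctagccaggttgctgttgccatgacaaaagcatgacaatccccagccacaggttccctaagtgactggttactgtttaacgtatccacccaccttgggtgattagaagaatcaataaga
Hnf4a downstream: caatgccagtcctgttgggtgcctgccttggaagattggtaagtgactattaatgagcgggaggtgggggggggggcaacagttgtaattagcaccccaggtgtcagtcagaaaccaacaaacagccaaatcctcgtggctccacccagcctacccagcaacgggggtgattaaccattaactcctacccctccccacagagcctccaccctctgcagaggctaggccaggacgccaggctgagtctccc
Nr1h4: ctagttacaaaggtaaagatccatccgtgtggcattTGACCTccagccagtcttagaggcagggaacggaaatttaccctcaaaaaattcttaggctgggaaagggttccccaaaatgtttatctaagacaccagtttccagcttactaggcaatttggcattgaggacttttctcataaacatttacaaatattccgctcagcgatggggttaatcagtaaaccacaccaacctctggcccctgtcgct
RefSeq gave 13 windows for 7 of the 8 genes, with Hnf4g as the gene not matched. The motif AGGTCA was found in 1 of the 13, the Nr1h4 window, and in 14.0% of all 32851 windows. Every window was searched over the full 250 bases before its start, also where fewer are printed. The ERR element TNAAGGTCA, the HNF4 core CAAAGTCCA and the FXR element (AGGTCA, any base, TGACCT) were in 0 of the 13. They occurred in 1.14%, 0.384% and 0.00609% of all windows. The ERR and FXR elements contain AGGTCA. All motifs were searched on both strands. A match in these letters is a description and not a site of binding.

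Hnf4g, the relative of Hnf4a at chr3:3508030-3658052 (plus strand), had 16.3, 11.6 and 1.31 CPM under VHL-KO. It had 4.67, 5.28 and 5.07 CPM under VHL-KO;SETD2-KO. The VHL-KO;SETD2-KO libraries lay close together, below VHL-KO replicates 1 and 2 and above VHL-KO replicate 4. The log2 fold change was -0.97 (SE 0.76, edgeR adjusted p = 0.688). With VHL-KO replicate 4 left out it was -1.49, a 2.81-fold lower level (SE 0.22, edgeR adjusted p = 0.0776). With VHL-KO replicate 1 left out instead it was -0.37 (edgeR adjusted p = 0.832), and limma-voom on all 6 libraries gave -0.39. DESeq2 without VHL-KO replicate 4, added once the data were known, gave -1.497 (SE 0.30, adjusted p = 4.22e-05).

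Pax8, the paired-domain factor of the nephric lineage at chr2:24420560-24475599 (minus strand), had 61.2, 56.3 and 79.4 CPM under VHL-KO. It had 24.1, 40.1 and 39.0 CPM under VHL-KO;SETD2-KO. As with Hnf4a, the groups did not overlap. Means were 65.7 ± 12.2 CPM (SD, n = 3) and 34.4 ± 8.93 CPM (SD, n = 3), a 1.91-fold lower level (log2 fold change -0.93, SE 0.40, edgeR adjusted p = 0.625). It was -0.78 without VHL-KO replicate 4 (SE 0.24, edgeR adjusted p = 0.169). Leaving out any of the other 5 libraries in turn ended the unadjusted call of both Hnf4a and Pax8, while neither changed direction. Their log2 fold changes then ran from -1.14 to -0.87 for Hnf4a and from -1.05 to -0.71 for Pax8, and the call was kept when VHL-KO replicate 4 was left out. Pax2, its relative at chr19:44756045-44837871 (plus strand), had 10.2, 8.77 and 15.4 CPM under VHL-KO and 6.74, 11.9 and 7.83 CPM under VHL-KO;SETD2-KO. The groups overlapped (log2 fold change -0.38, SE 0.43, edgeR adjusted p = 0.773). The value was -0.11 without VHL-KO replicate 4, -0.20 without VHL-KO;SETD2-KO replicate 2 and -0.64 without its replicate 3.

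Nr1h4, which encodes FXR and lies at chr10:89454234-89533585 (minus strand), had 192.4, 191.6 and 71.4 CPM under VHL-KO. It had 81.0, 89.5 and 109.6 CPM under VHL-KO;SETD2-KO. VHL-KO replicate 4 was the lowest of all 6 libraries, and the other VHL-KO libraries were the highest. The log2 fold change was -0.70 (SE 0.48, edgeR adjusted p = 0.656). Without VHL-KO replicate 4 it was -1.04, a 2.06-fold lower level (SE 0.17, edgeR adjusted p = 0.0776). It was -0.49 without VHL-KO replicate 1 and also without replicate 2 (edgeR adjusted p = 0.700 and 0.703). DESeq2 without VHL-KO replicate 4 gave -1.05 (SE 0.21, adjusted p = 3.86e-05).

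Esrra, the respiratory nuclear receptor at chr19:6910977-6921813 (minus strand), had 73.5, 76.7 and 306.8 CPM under VHL-KO. It had 53.8, 87.6 and 51.6 CPM under VHL-KO;SETD2-KO. The groups overlapped, and VHL-KO replicate 4 alone was far above the rest. The log2 fold change of -1.24 (SE 0.64, edgeR adjusted p = 0.625) became -0.23 (SE 0.26, adjusted p = 0.653) without that library, which thus decided its size. Esrra overlaps Trmt112, a protein-coding gene on the opposite strand, for a short stretch at its end.

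Esrrg, its relative at chr1:187608791-188214885 (plus strand), had 63.4, 57.9 and 11.1 CPM under VHL-KO and 35.2, 62.2 and 51.5 CPM under VHL-KO;SETD2-KO. The groups overlapped, with VHL-KO replicate 4 lowest. Its log2 fold change was 0.17 (SE 0.63, edgeR adjusted p = 0.928) and turned to -0.29 without VHL-KO replicate 4 and to -0.025 without VHL-KO;SETD2-KO replicate 3. Ppargc1a, the coactivator of both ERR receptors at chr5:51454250-51567726 (minus strand), had 44.5, 41.8 and 8.03 CPM under VHL-KO. It had 27.5, 77.9 and 38.4 CPM under VHL-KO;SETD2-KO, where replicate 3 was the highest of all 6 libraries. The groups overlapped (log2 fold change 0.61, SE 0.68, edgeR adjusted p = 0.771), and the value was 0.066 without VHL-KO;SETD2-KO replicate 3, 0.15 without VHL-KO replicate 4 and 0.94 without VHL-KO replicate 1. Its relative Ppargc1b had 19.4, 15.3 and 8.96 CPM under VHL-KO and 8.75, 13.5 and 13.7 CPM under VHL-KO;SETD2-KO (log2 fold change -0.28, SE 0.44, edgeR adjusted p = 0.823).

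**Figure D3:**
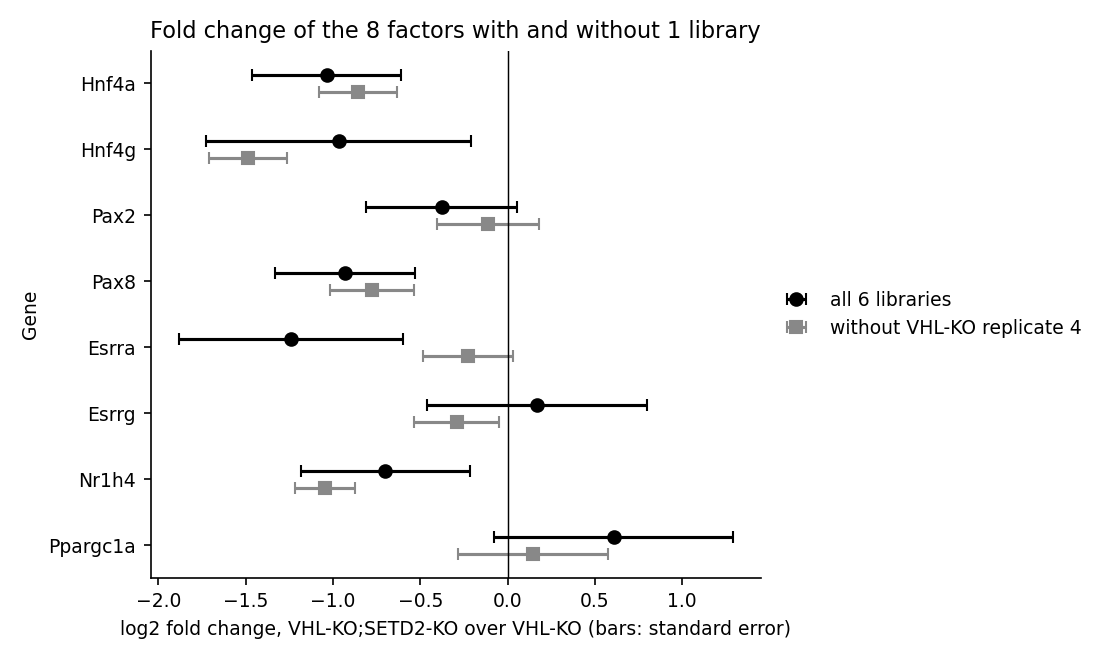
Log2 fold change (VHL-KO;SETD2-KO over VHL-KO) of the 8 genes with its standard error, from edgeR with all 6 libraries (black) and without VHL-KO replicate 4 (grey). Hnf4a and Pax8 stay below 0 in both fits, Hnf4g and Nr1h4 move further from 0 without that library, and Esrra moves from -1.24 to -0.23.

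VHL-KO replicate 4 lay outside the range of the other 5 libraries for every one of the 8 genes, above for 4 and below for 4. The split followed the GC content of the transcripts. Hnf4a (53.7% GC), Pax2 (62.2%), Pax8 (50.1%) and Esrra (50.3%) were above the other libraries, by 1.02, 0.78, 0.92 and 2.19 on the log2 CPM scale relative to their mean. Hnf4g (41.5% GC), Ppargc1a (41.7%), Esrrg (42.5%) and Nr1h4 (47.2%) differed by -2.41, -2.41, -2.24 and -0.80. The same held across the transcriptome as a description, with a Spearman correlation of 0.722 between this difference and GC content over the tested genes that had an annotation (94.5%). The correlation with transcript length was -0.40. Genes below 45% GC had a median difference of -2.15 in this library and genes at or above 50% GC one of 1.15. Mitochondrially encoded genes took 11.3% of its counts and 25.9% to 36.4% of the others. What set this library apart was not tested.

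**Figure D4:**
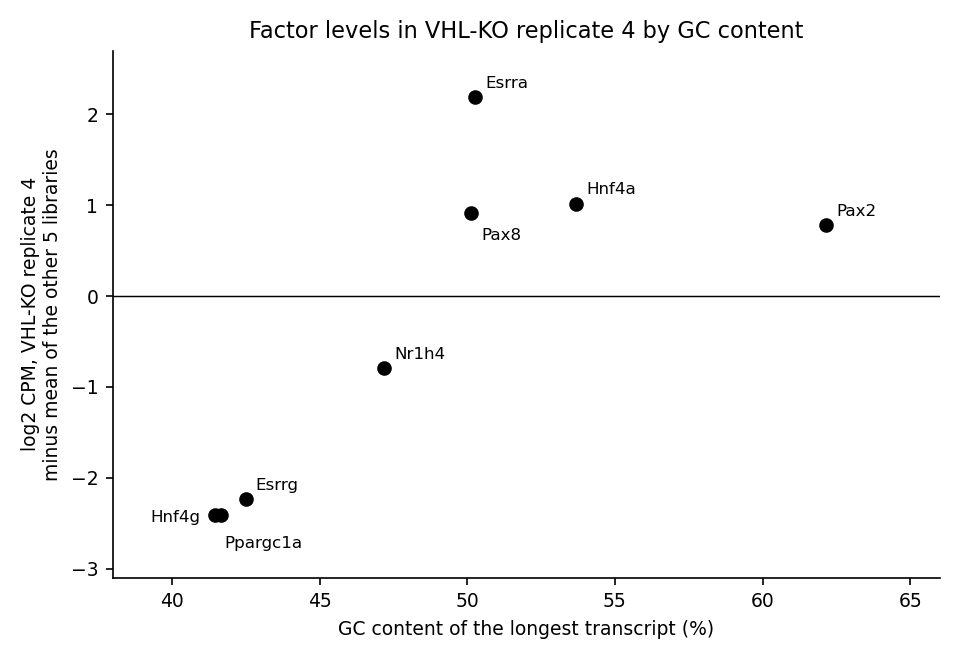
Difference in log2 CPM between VHL-KO replicate 4 and the mean of the other 5 libraries (vertical axis) against the GC content of the longest transcript (horizontal axis, %), 1 point per gene. Of the 8 labelled genes, 4 with 50.1% GC or more lie above 0 and the other 4, with 47.2% or less lie below 0.

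Without VHL-KO replicate 4, 4 of the 8 genes passed the unadjusted threshold in edgeR, Hnf4a, Hnf4g, Pax8 and Nr1h4, all lower, against 15.4% of tested genes in either direction. No overlap was seen for the same 4, against 41.6% of tested genes in either direction and 21.2% in the lower direction. None of the 8 then had an adjusted p under 0.05 in edgeR, which called 0.00667% of tested genes. DESeq2 without that library gave an adjusted p under 0.05 and the fold change for Hnf4a, Hnf4g and Nr1h4, where it called 8.34% of tested genes, and 0.0697 for Pax8. Limma-voom with sample quality weights kept all 6 libraries but gave VHL-KO replicate 4 a weight of 0.0376, against 0.458 to 3.62 for the others. It called Hnf4a, Hnf4g, Pax8 and Nr1h4 lower, with adjusted p-values of 0.00908, 0.00651, 0.0199 and 0.00703, where it called 18.2% of tested genes in all and 8.25% as lower. An offset for GC content and transcript length within edgeR gave log2 fold changes of -0.89, -1.06, -0.95 and -0.74 for the same 4 genes. All 4 passed the unadjusted threshold, which 14.3% of tested genes did, and their adjusted p-values were 0.243, 0.326, 0.233 and 0.323. These 3 settings were added once the data were known.

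The balance between relatives was compared as the ratio of counts within a library, which does not depend on library size. The Hnf4a to Hnf4g ratio was 45.03, 56.9 and 753 under VHL-KO and 64.9, 84.6 and 81.1 under VHL-KO;SETD2-KO. The difference in mean log2 ratio was -0.71 (exact permutation test, 2-sided, p = 1). It turned to 0.59 without VHL-KO replicate 4 (exact permutation test, 2-sided, p = 0.1, the smallest that 5 libraries allow). The Pax2 to Pax8 ratio was 0.167, 0.156 and 0.194 under VHL-KO and 0.279, 0.297 and 0.201 under VHL-KO;SETD2-KO. These ratios did not overlap, and Pax2 stood higher against Pax8 by 0.57 on the log2 scale under VHL-KO;SETD2-KO (exact permutation test, 2-sided, p = 0.1, the smallest this design allows, and 0.3 adjusted over the 3 ratios). The Esrra to Esrrg ratio was 1.16, 1.33 and 27.6 under VHL-KO and 1.53, 1.41 and 1.00 under VHL-KO;SETD2-KO. Its difference was -1.43 (exact permutation test, 2-sided, p = 0.6) and 0.059 without VHL-KO replicate 4 (p = 0.9).

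Set against the summed proximal tubule markers of the same library, Hnf4a did not separate the labels. Per 1000 CPM of these markers there were 47.6, 44.1 and 41.1 CPM of Hnf4a under VHL-KO and 46.1, 49.0 and 52.7 CPM under VHL-KO;SETD2-KO. The groups overlapped, as they also did for Pax8, with 3.32 to 3.96 CPM against 3.68 to 5.0003 CPM. Nr1h4 had 12.4, 12.8 and 2.98 CPM per 1000 under VHL-KO and 12.3, 9.82 and 14.1 under VHL-KO;SETD2-KO. Pax2, Esrrg and Ppargc1a were higher without overlap on this scale, for example Pax2 with 0.584 to 0.661 against 1.00 to 1.31. On the same scale 62.0% of all tested genes were higher without overlap and 0.370% lower, so that share is not particular to the 3 genes. The marker list is itself uneven, since Slc34a1 had 14181 CPM and Lrp2 had 938 CPM in VHL-KO replicate 4, against 2185 to 4970 and 1165 to 3378 CPM in the others.

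**Figure D5:**
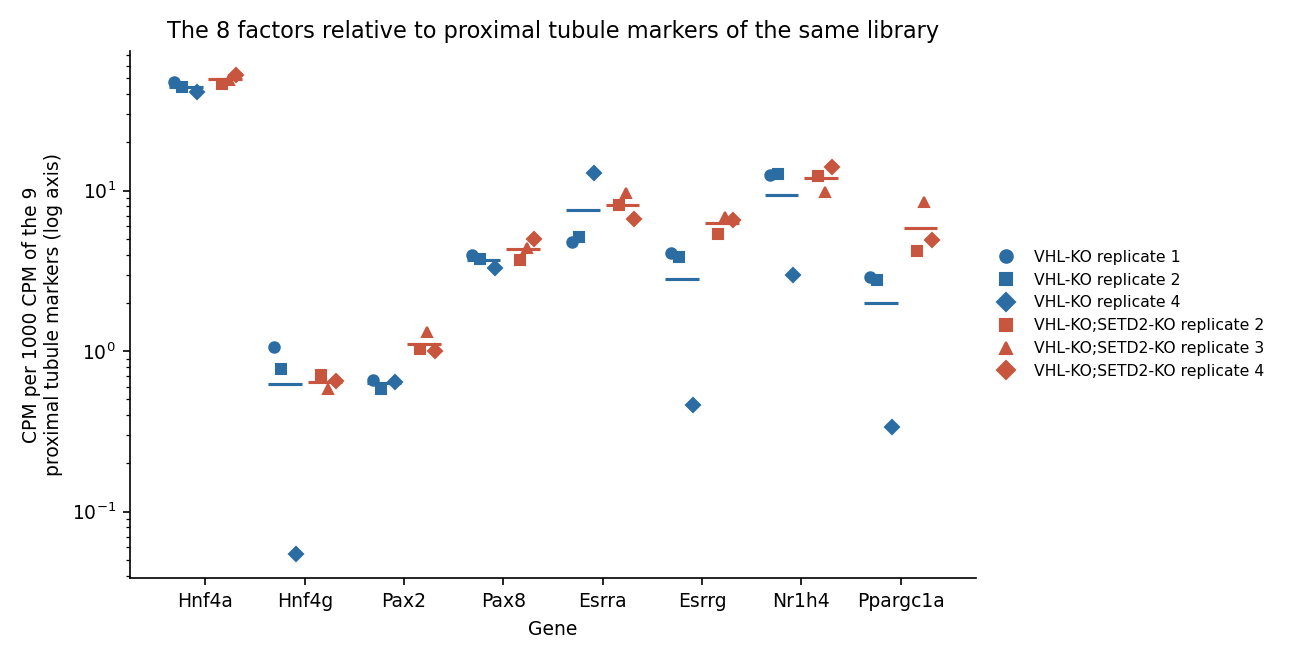
CPM of each of the 8 genes per 1000 CPM of the 9 summed proximal tubule markers of the same library (log axis), coloured by label, with a bar at each group mean. Hnf4a lies between 41.1 and 52.7 in all 6 libraries, and Pax2, Esrrg and Ppargc1a are higher in all VHL-KO;SETD2-KO libraries.

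Of 6 other transcription factors of the proximal tubule (Maf, Ppara, Rxra, Vdr, Klf15 and Cebpa), 6 had a negative log2 fold change and 0 passed either threshold. Their median was -0.68, and between -0.90 and -0.34 over the fits without 1 library, lowest in size without VHL-KO replicate 4. Rxra, the retinoid X receptor that pairs with FXR, had 121.8, 119.8 and 320.3 CPM under VHL-KO and 84.4, 90.9 and 93.1 CPM under VHL-KO;SETD2-KO. These groups did not overlap (log2 fold change -1.07, SE 0.50, edgeR adjusted p = 0.625). In the fit without VHL-KO replicate 4 it was -0.44 (edgeR adjusted p = 0.158). Cebpa, a factor of metabolic genes, had 14.2, 15.1 and 65.5 CPM against 12.5, 15.2 and 12.7 CPM. Its groups overlapped, and VHL-KO replicate 4 alone was far above the rest (log2 fold change -1.23, edgeR adjusted p = 0.625, and -0.13 without that library).

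Genes that HNF4 factors are known to bind or need were read beside Hnf4a. Of 10 listed, Apom had 0 counts in all libraries and 9 were tested, of which 9 had a negative log2 fold change. Of the 9, 2 passed the unadjusted threshold, 0 passed the adjusted one and 3 did not overlap between labels. Of all tested genes 4.68% passed the unadjusted threshold as lower, and 11.0% were lower without overlap. The median of the 9 was -0.75, and -0.47, -1.12 and -0.48 without VHL-KO;SETD2-KO replicate 2, 3 or 4. The 2 that passed were Slc22a6, which is also on the marker list, and Ttr. Slc22a6, the organic anion transporter of the basolateral membrane, had 1093, 1041 and 2493 CPM under VHL-KO and 441, 302 and 468 CPM under VHL-KO;SETD2-KO (log2 fold change -1.93, SE 0.53, edgeR adjusted p = 0.625). Ttr, the thyroid hormone carrier, had 228, 86.06 and 319 CPM under VHL-KO and 83.4, 29.1 and 85.91 CPM under VHL-KO;SETD2-KO. Its labels were thus only just separate (log2 fold change -1.67, SE 0.63, edgeR adjusted p = 0.625). Without VHL-KO replicate 4 Ttr was at -1.25 and did not pass the unadjusted threshold (edgeR unadjusted p = 0.071). Without VHL-KO replicate 4 the list's median was -0.50, with 7 of 9 genes negative.

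Partners and targets of FXR were read beside Nr1h4. Of 9 listed, 5 were tested, of which 4 had a negative log2 fold change, with a median of -0.87. Slc51a passed the unadjusted threshold, as 4.68% of all tested genes did in the lower direction, and 0 passed the adjusted one. Slc51a, a subunit of the basolateral bile acid exporter, had 69.0, 68.6 and 307 CPM under VHL-KO and 34.1, 22.1 and 40.7 CPM under VHL-KO;SETD2-KO. The groups did not overlap (log2 fold change -2.197, SE 0.68, edgeR adjusted p = 0.625, and -1.10 without VHL-KO replicate 4). Fgf15 and Abcb11, targets of FXR in intestine and liver, had at most 0.188 CPM, which is at or under the floor.

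Targets of the ERR receptors and PGC-1alpha were mixed. Of 14 listed, Esrra itself among them, 13 were tested, with 7 negative and 6 positive log2 fold changes, 0 past the unadjusted threshold and a median of -0.33. The lowest p-values of this list belonged to Sdhb, a subunit of succinate dehydrogenase (-1.57), and to Esrra. In the fit without VHL-KO replicate 4 Sdhb was at -0.32, 11 of 13 were negative, and the list's median was -0.23. That median was -0.037 without VHL-KO replicate 1 and -2.1e-05 without its replicate 2. Coregulators of nuclear receptors showed no call. All 12 listed were tested, 9 with a positive and 3 with a negative log2 fold change, 0 passed either threshold and the median was 0.13. Its lowest p-values belonged to Med1, a Mediator subunit (0.52), and Kat2a, an acetyltransferase (-0.39). The median of this list turned to -0.057 without VHL-KO replicate 4 and was 0.38 without replicate 1 and also without replicate 2.

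Regulators of the nephric lineage that act beside PAX2 and PAX8 were read beside these genes. Of 11 listed, 8 were tested, with 6 positive and 2 negative log2 fold changes and a median of 0.66, 0.30 without VHL-KO replicate 4 and 0.21 without VHL-KO;SETD2-KO replicate 3, the library with Xist counts. Wt1 passed the unadjusted threshold, as 2.66% of all tested genes did in the higher direction, and 0 passed the adjusted one. Wt1, which marks podocytes in the adult kidney, had 34.2, 44.7 and 19.6 CPM under VHL-KO and 114, 58.1 and 106 CPM under VHL-KO;SETD2-KO (log2 fold change 1.495, SE 0.48, edgeR adjusted p = 0.625). Its highest values were in replicates 2 and 4, the libraries with the highest podocyte marker sums, which include Wt1. Vhl, targeted under both labels, had 14.0, 12.8 and 25.8 CPM under VHL-KO and 14.4, 17.8 and 11.8 CPM under VHL-KO;SETD2-KO.

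The genes with the most similar pattern were taken as the 3 with the highest Pearson correlation of log2 CPM over the 6 libraries, among tested genes with a mean log2 CPM of at least 3. For Hnf4a they were Lars2, Glb1l and Rtn4ip1 (r = 0.997, 0.997 and 0.993), and for Pax8 they were Kdm4a, Slc51b and Slc6a18 (r = 0.993, 0.992 and 0.989). For Hnf4g they were Tmem229a, Abcg2 and Glyat (r = 0.998, 0.998 and 0.997), and for Nr1h4 they were Fam213a, Nt5c2 and Abcc2 (r = 0.992, 0.992 and 0.991). For Esrra they were Jagn1, Mdh2 and Etfb (r = 0.999 for each), and for Pax2 they were Klhdc7a, Nsun4 and Tmprss2 (r = 0.995, 0.994 and 0.993). For Esrrg they included Slc25a30 and Strbp (r = 0.998 and 0.996), and for Ppargc1a they were Sgms2, Fam134b and Nox4 (r = 0.999, 0.996 and 0.995). These correlations share the 6 libraries and their depth, and over the 5 libraries without VHL-KO replicate 4 they lay between 0.965 and 1.000. Among the 8 genes themselves, Hnf4a and Pax8 had r = 0.989 over 6 libraries and 0.983 over 5. Hnf4a and Hnf4g had r = -0.12 over 6 libraries and 0.940 over 5, and Hnf4a and Nr1h4 had 0.257 and 0.943. Esrrg and Ppargc1a had 0.961 and 0.784.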

How the data were processed

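Raw read counts per gene symbol, deposited by the authors for 6 PTEC libraries, were analysed. The authors used a directional kit and paired-end Illumina sequencing, and the submitters' processing notes name HISAT2 2.0.4 and GRCm38. The counting program, the annotation and the use of strand are not given in the sources used here. No per-sample column was left out (0). Groups and replicate numbers came from the sample labels, and nothing beyond these and the stated 3 mice per group shows that libraries are independent.

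Counts were normalized with TMM and tested with edgeR 4.0.16 (quasi-likelihood test, R 4.3.3) on 14611 genes that passed filterByExpr, with the label as the only factor. Adjustment was by Benjamini and Hochberg over all tested genes. Standard errors were taken as the unshrunken log2 fold change over the root of F, and log2 CPM used a prior count of 2. Calls needed p under 0.05 and a 1.5-fold difference, as in the study's methods, which name DESeq2 without saying whether p was adjusted. DESeq2 1.42.0 and limma 3.58.1 were alternatives. DESeq2 left the adjusted p of 7 of the 8 genes as NA with all 6 libraries. Exon lengths, GC content and positions came from GENCODE M21. The edgeR, DESeq2 and unweighted limma-voom fits were also run on simulated counts, with no simulated library like VHL-KO replicate 4. The quality weights, the GC and length offset and the fits without a library were not simulated.

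The 8 genes and all lists were chosen with earlier results of these data known. Genes were named if they are one of the 8, Setd2, Vhl, Cdh16 or Ppargc1b, a list gene past an unadjusted p of 0.05 (the 2 lowest p otherwise) or one of the 3 nearest patterns. Some genes are not reported here, and list counts and medians leave them out. Marker genes, Hnf4aos, Trmt112, Xist, Apom, Fgf15 and Abcb11 were named outside this rule, after their values were seen. Hepatocyte, immune and injured tubule markers summed to at most 33.9, 161 and 72.9 CPM. Thick limb and distal tubule markers summed to 4796 CPM in VHL-KO replicate 4 and 4088 CPM in VHL-KO;SETD2-KO replicate 3. They summed to 1194 to 1881 CPM in the others. The same pair of libraries had the highest collecting duct sums. Replicate numbers 2 and 4 occur under both labels, but the libraries come from different mice, so no block was used in the main fit. The labels do not say whether same-numbered libraries were prepared together.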

Additional observations from a re-analysis of the deposited data

How the results depend on the processing

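Under the first 13 alternatives tried for each gene, Hnf4a, Pax2, Pax8, Esrra, Nr1h4 and Ppargc1a had the same direction in 13, Hnf4g in 12 and Esrrg in 11, and no adjusted p of the 8 genes was under 0.05 (0.0776 at the lowest). Of all tested genes, DESeq2 called 57 at an adjusted p, the table with no filter on low counts 2, and a minimum of 10 counts in every library 0. Of the 8 genes, 0 passed the unadjusted threshold with no filter, 1 with that minimum and 1 at a fold change of 2. In the same settings 1570 of 25375, 961 of 12325 and 1022 of 14611 tested genes passed. Limma-voom moved the median of all genes to 0.13 from 0.0095. Leaving out each library in turn gave 0 (with a VHL-KO;SETD2-KO library left out, whichever it was) to 1 genes at an adjusted p, 385 (without VHL-KO;SETD2-KO replicate 2; 682 and 455 without its replicates 3 and 4) to 2316 (without VHL-KO replicate 4) at an unadjusted p, and 0 to 4 of the 8 genes. Without VHL-KO replicate 1, Esrra was the only one of the 8 to pass the unadjusted threshold, as 1181 of 15139 tested genes did. Over these 6 fits Esrrg ranged from -0.29 to 0.53 in log2 fold change, the Hnf4a to Hnf4g ratio from -1.44 to 0.59, the Pax2 to Pax8 ratio from 0.46 to 0.75 and the Esrra to Esrrg ratio from -2.23 to 0.059.

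A replicate block on the shared numbers 2 and 4 gave 147 genes at an unadjusted p, 0 of them among the 8, and 0.25 for Hnf4g, and moved Nr1h4 to -0.31. VHL-KO replicate 1 and VHL-KO;SETD2-KO replicate 3 have no partner and add nothing to these fold changes. The block fit thus rests on the pairs numbered 2 and 4, the latter with VHL-KO replicate 4. Deviations of same-numbered libraries from their group means correlated at 0.16 for number 2 and -0.32 for number 4. VHL-KO replicate 4 enters the VHL-KO mean, so these values cannot decide whether the numbers mark a shared batch.

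Among settings added once the data were known, quality weights called 2658 genes at an adjusted and 3652 at an unadjusted p, with 4 of the 8 in each, and turned Esrrg to -0.40 and Ppargc1a to -0.26. DESeq2 without VHL-KO replicate 4 called 1251 and 2518, with 3 and 4 of the 8, and Esrrg at -0.30. The GC and length offset called 2086 at an unadjusted p, with 4 of the 8, and Esrrg at -0.21. The cause of these changes was not tested.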
